A study of Mus musculus with 346 samples.

Results

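Luminal cells form the inner layer of the mammary ducts, and 102 of them were compared here between puberty and adulthood, out of 346 single cells in the series. They came from the mammary epithelium of untreated female FVB/NJ mice, an inbred laboratory strain, sorted as cells without the blood and vessel markers CD31, CD45 and Ter119, with 80 luminal cells taken at puberty (4.7 to 4.9 weeks of age) and 22 in adulthood (10 weeks). Each cell was caught in its own chamber of a Fluidigm C1 chip, where its polyadenylated RNA was copied into full-length cDNA, and was sequenced on its own. The design text names 8 mice at each stage, whereas a legend of the study counts mice per sort and differs from it, and no label ties a cell to a mouse, a sort or a chip. A stage thus counts as a single sample. No test between the stages was made, cells were not used as replicates, and differences between mice, captures or libraries cannot be told apart from the difference between stages.

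Members were chosen by their keratins, the filament proteins by which the mammary layers are told apart. Of 136 pubertal and 66 adult cells, 119 and 43 held at least 100000 reads on the analysed genes and at least 1500 detected genes. A kept cell counted as luminal when Krt8 or Krt18, the luminal keratins, exceeded 40 RPKM (reads per 1000 bases of gene per 1000000 reads) and Krt14, the basal keratin, was at or below 40 RPKM. This took 67.2% of the kept pubertal cells (exact 95% interval 58.0 to 75.6%) and 51.2% of the kept adult cells (35.5 to 66.7%). One label calls the cells total epithelium and another speaks of sorted basal and luminal cells, so these shares cannot be told apart from the way the cells were sorted. A further 29 pubertal and 18 adult cells were above 40 RPKM of Krt14 and are called Krt14-positive below, and 10 and 3 kept cells met neither condition. All intervals given here are at 95% and cover counting error only, and the reads carry no molecular identifiers, so they are not independent molecules.

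The luminal layer holds 2 main kinds of cell. Mature luminal cells carry the receptors for oestrogen, progesterone and prolactin and pass these signals on to their neighbours, whereas luminal progenitors, most of which lack the steroid receptors, give rise to the alveolar cells that make milk in pregnancy. At puberty the ducts grow into the fat pad behind rapidly dividing end buds under the drive of oestrogen and of growth factors of the EGF family. In the virgin adult the tree is largely complete, and its cells pass through the oestrous cycle, with small side buds forming and regressing.

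The keratin rule separated the cells with few of them close to its limits. Among cells with low Krt14, the lowest members had 62.98 RPKM (adult) and 82.2 RPKM (puberty) of the larger luminal keratin, and the highest cells left out had 29.3 RPKM and 33.2 RPKM. On the Krt14 side, the highest members stood at 38.4 RPKM (adult) and 34.6 RPKM (puberty), and the lowest cells left out at 43.2 RPKM and 53.997 RPKM. Krt19 and Epcam, a further luminal keratin and an epithelial adhesion protein that the rule did not use, were also described. As a description of the rule's own genes, the medians over pubertal and adult members were 605 and 593 RPKM for Krt8, 2078 and 1481 RPKM for Krt18, and 0 and 3.83 RPKM for Krt14. Krt19 exceeded 40 RPKM in 74 of 80 pubertal and 19 of 22 adult members, and Epcam in 77 and 21. They passed 40 RPKM in a part of the Krt14-positive cells as well, Krt19 in 17 of 29 pubertal and 6 of 18 adult ones and Epcam in 25 and 12, so that passing this level does not by itself mark a luminal cell.

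**Figure D1:**
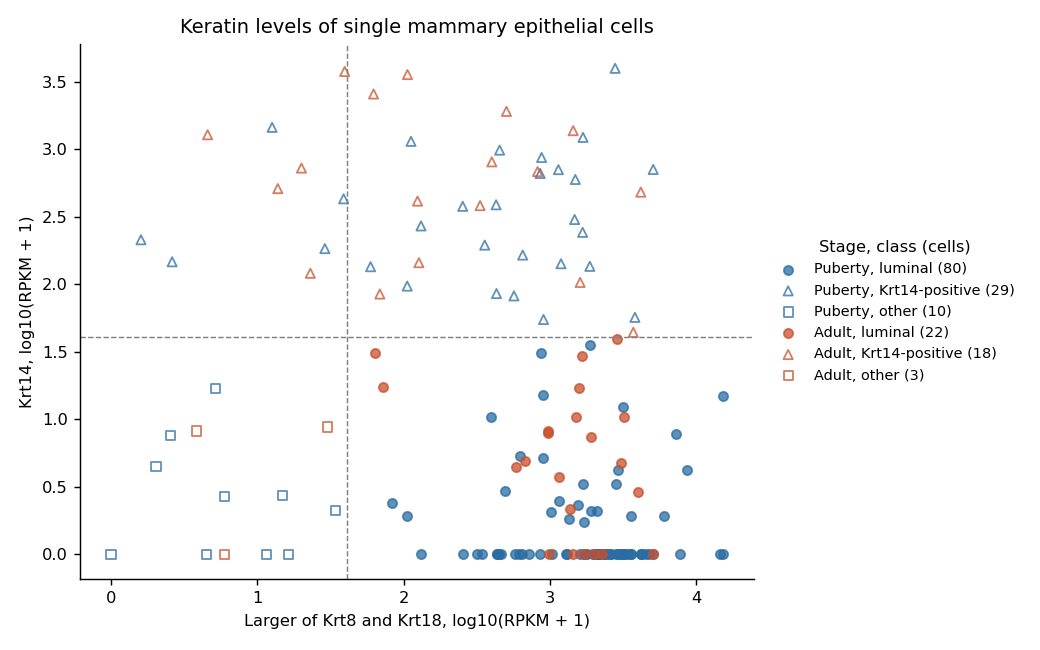
Krt14 (vertical axis) against the larger of Krt8 and Krt18 (horizontal axis), both as log10(RPKM + 1), in every kept pubertal (blue) and adult (orange) cell, where filled circles are the luminal members, triangles Krt14-positive cells, squares cells that met neither condition, and dashed lines mark 40 RPKM. The 102 members occupy the lower right quadrant, and 16 of the 22 adult members sit above 0 on the Krt14 axis against 25 of the 80 pubertal ones.

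Some members went against the label. In 7 of them (5 pubertal and 2 adult) Krt19 and Epcam were both at or below 40 RPKM, or at least 5 of 9 fibroblast genes or at least 3 of 10 immune genes were detected after thinning each cell to 100000 reads. Adult cell 51 carried 5 of the immune genes, and adult cell 45 carried all 9 fibroblast genes and had 39.9% of its reads on mitochondrial genes. Basal genes were also found in members of both stages. The summed level of the 17 basal genes ran from 0 to 5692 CPM (counts per 1000000 reads; median 10.6) in pubertal and from 0 to 5739 CPM (median 73.5) in adult luminal cells, and 5 or more of them were detected in 16 of 80 and 10 of 22 cells. Col17a1 and Snai2 of that list had no read in any adult member. Krt14 itself had at least 1 read in 31.2% of pubertal and 72.7% of adult members. What these basal reads contribute to the comparison was not tested. Of the 109 genes chosen by rule that were called between the stages, 100 kept their call without the 7 members that went against the label and 89 without the members with 5 or more basal genes, which left 12 adult cells. The losses are named below for the genes described.

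Marker genes of other cell types were at or near 0 in most members. Immune genes were detected in 2 of 80 pubertal and 2 of 22 adult thinned cells, Ptprc, Cd3e, Cd3g, Cd79a and Coro1a had no read in any adult member, and the summed level reached 33.8 CPM in a pubertal and 6530 CPM in an adult cell. Fibroblast genes had a median summed level of 6.86 CPM (0 to 47984) at puberty and 1.35 CPM (0 to 41817) in the adult, with 3 of 9 lower in the adult pool (33.3%, against 32.0% of all genes by the rule given below) and none higher. Without the 7 members that went against the label, 4 of the 9 reached 10 CPM, and of these 1 was higher and none lower. Endothelial, pericyte and Schwann genes had medians of at most 3.68 CPM at either stage. Of the 5 adipocyte genes Fabp4 was higher in the adult, where cell 51 held 86.4% of its reads (its log2 ratio turned from 2.75 to -4.58 without the 7 members), and Plin1 and Cidec had no read at either stage.

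Depth differed between the stages. Pubertal members had a median of 578232 analysed reads per cell (127221 to 1170219) and 3620 detected genes, whereas adult members had 331268 reads (163254 to 1023332) and 2950 genes. The gap in detected genes remained after thinning to equal depth, at 2732 and 2181 genes. Shares of cells with a gene are therefore given from the thinned cells, where 1 read in 100000 counts as detection.

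For each gene the reads of all luminal cells of a stage were summed and expressed as CPM, and the log2 ratio of adult over puberty was taken after adding 5 CPM to both, which understates the change of low genes. A gene is called higher or lower when this ratio reached 1 in size both over all cells and after the cell with most reads of that gene was left out of each stage. Of 8929 genes at 10 CPM or more in either stage, 587 (6.57%) were higher and 2853 (32.0%) lower in adult luminal cells by this rule, 3440 (38.5%) in either direction. Over all cells alone, with no demand on the ratio without the top cells, 2005 were higher and 3324 lower. The excess of lower genes was greatest among weakly expressed ones: log2 ratios had a median of -0.32 in the full set but 0.19 among the 3868 genes that averaged at least 50 CPM, with 10.2% higher and 21.4% lower there. It goes with the smaller number of detected genes in adult cells, and the part of that number in it was not tested. Medians of gene lists below are set beside these figures.

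Milk protein genes were among the most raised in the adult. Caseins are the main proteins of milk, and of the 17 listed milk genes 13 reached 10 CPM, with 7 higher in adult cells (Csn1s1, Csn1s2a, Csn2, Spp1, Btn1a1, Mfge8 and Plin2), 1 lower (Ltf, the iron-binding lactoferrin) and 5 past neither limit. The shares, 53.8% higher and 7.69% lower, compare with 6.57% and 32.0% of all genes. The median log2 ratio of the 13 genes was 1.81, against -0.32 over all genes considered. In Krt14-positive cells the same genes had a median of 2.84 over pooled reads, but the typical cell there did not rise. The summed milk level per Krt14-positive cell had a median of 641 CPM at puberty and 496 CPM in the adult. In luminal cells that median was 29.4 CPM at puberty and 416 CPM in the adult. Together the 17 genes took 0.839% of all pubertal and 3.06% of all adult luminal reads.

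Csn1s1, Csn2 and Csn1s2a lie side by side on chromosome 5. The bases before their starts are shown because these 3 genes had the largest casein ratios, and Stat5, the transcription factor that acts behind the prolactin receptor, is known to bind casein promoters at sites of the form TTCNNNGAA. The sequences are the 150 bases before the transcript start that RefSeq gives on GRCm38.p6, on the gene's own strand from 5′ to 3′, with any match to TTCNNNGAA, which reads alike on both strands, in capitals.
Csn1s1, chr5:87666058-87666207, plus strand: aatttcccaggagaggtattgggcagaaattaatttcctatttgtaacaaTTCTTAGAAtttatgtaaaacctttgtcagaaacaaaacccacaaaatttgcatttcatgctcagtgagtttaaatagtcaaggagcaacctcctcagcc
Csn2, chr5:87699426-87699575, minus strand: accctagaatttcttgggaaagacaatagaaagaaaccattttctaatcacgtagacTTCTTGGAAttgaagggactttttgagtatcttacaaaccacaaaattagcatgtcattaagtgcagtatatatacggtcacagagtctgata
Csn1s2a, chr5:87774300-87774449, plus strand: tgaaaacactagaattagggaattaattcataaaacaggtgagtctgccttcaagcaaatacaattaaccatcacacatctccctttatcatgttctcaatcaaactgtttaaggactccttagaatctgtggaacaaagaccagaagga

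Csn1s1 and Csn2 each held 1 match, beginning 100 and 93 bases before the start, and Csn1s2a held none in this window, although its RefSeq entry held 1 match just after the start. Such a match was present in the same window of 4.09% of the 32851 RefSeq promoters, and in 3 of the 12 listed milk genes with an entry, the other being Glycam1, which had no read in either stage. A match of letters is no evidence that the factor was bound.

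Csn1s1 (Entrez 12990) stood at 380.2 CPM in pubertal and 7236 CPM in adult luminal cells (Poisson intervals 374 to 386 and 7183 to 7288), a log2 ratio of 4.23 over all cells and 4.82 without the top cell of each stage. In single cells it ran from 0 through a median of 0 to 16126 CPM at puberty, and from 0 through a median of 53.1 to 45700 CPM in the adult. The 2 ranges overlapped, and most adult cells lay far below the mean: 6 of 22 adult and 3 of 80 pubertal cells reached 1000 CPM, and those cells held 98.8% and 98.1% of the stage's Csn1s1 reads.

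Csn2 (Entrez 12991), beta-casein, stood at 126 CPM in pubertal and 3504 CPM in adult luminal cells. All of its pubertal reads came from a single cell, number 85, at 8755 CPM, so that without the top cells the pubertal level was 0 and the adult level 2325 CPM. Among adult luminal cells 4 reached 1000 CPM, at 7446, 19384, 38846 and 42814 CPM. The other 18 lay between 0 and 326.6 CPM. Csn1s2a (Entrez 12993) repeated this form, with 32.7 CPM at puberty, 99.5% of it from cell 85, and 3311 CPM in the adult, of which cell 10 held 51.5%.

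Low levels of caseins were widespread in adult cells of either layer. Csn2 was detected in 63.6% of thinned adult luminal cells (40.7 to 82.8%) and in 44.4% of adult Krt14-positive cells (21.5 to 69.2%), whose median Csn2 level was 7.37 CPM, against 1 of 80 pubertal luminal cells and 0 of 29 pubertal Krt14-positive cells, which allows a share of up to 10.3%. The 2 adult shares overlap in their intervals. The source of these low reads was not tested, so the share of adult luminal cells with a Csn2 read is not taken as a measure of expression. The cells at 1000 CPM or more numbered 4 of 22 luminal and 1 of 18 Krt14-positive adult cells.

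**Figure D2:**
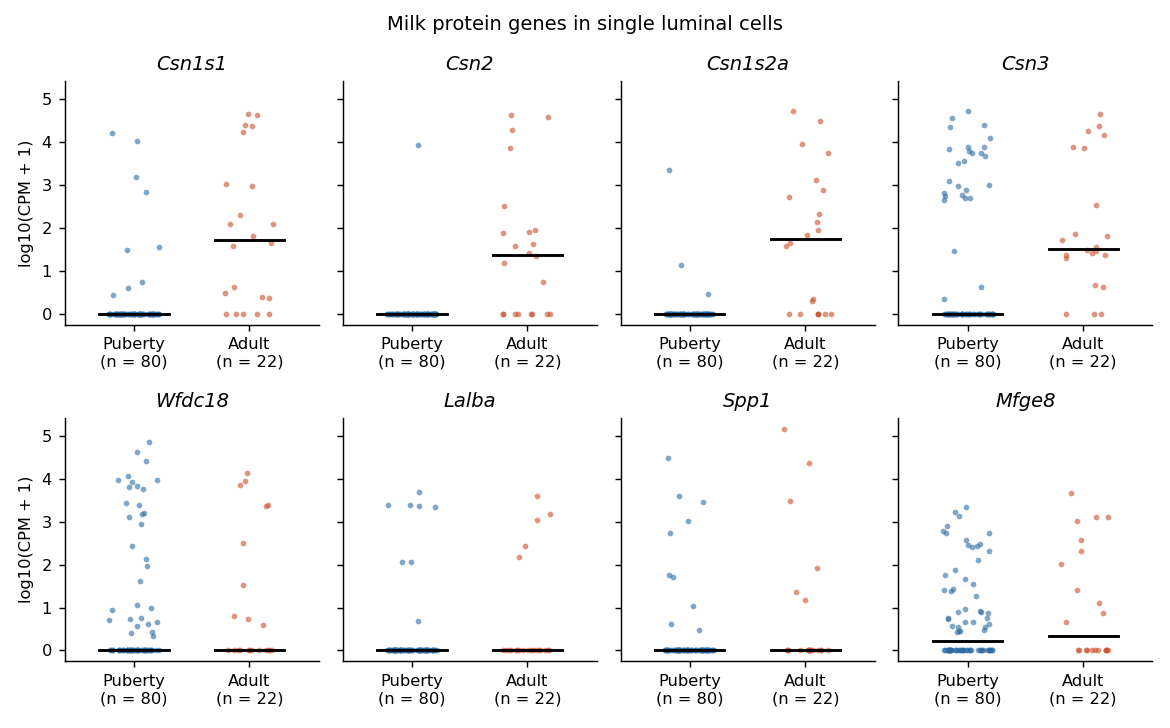
Level of 8 milk protein genes in each luminal cell (points) as log10(CPM + 1) at puberty (blue, 80 cells) and in the adult (orange, 22 cells), with black bars at the median. Csn1s1, Csn2 and Csn1s2a are at 0 in nearly every pubertal cell and reach above 1000 CPM in 6, 4 and 5 adult cells, whereas Csn3, Wfdc18 and Lalba reach high levels at both stages.

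Other milk genes were already high at puberty. Csn3, kappa-casein, stood at 2900 CPM in pubertal and 5079 CPM in adult cells (log2 ratio 0.81), and 15 of 80 and 6 of 22 cells reached 1000 CPM. Wfdc18, a small whey-type protein also called Expi, was level at 1962 and 1959 CPM. Lalba, alpha-lactalbumin, stood at 201.8 and 235 CPM. Wap, the main whey protein of mouse milk, was below 10 CPM at both stages. Per base of gene, adult Csn1s1 (5110 RPKM) was the highest of the caseins, followed by Csn1s2a (3599 RPKM), Csn3 (3181 RPKM) and Csn2 (3128 RPKM), whereas at puberty Csn3 led with 1816 RPKM and Csn1s1 had 268 RPKM. Single cells set part of this order: without the adult cell with most reads of each gene, Csn1s1 had 3090 RPKM, Csn3 2332 RPKM, Csn2 2076 RPKM and Csn1s2a 1805 RPKM.

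Spp1, osteopontin, was 629 CPM at puberty and 5585 CPM in the adult, but pubertal cell 80 held 84.0% and adult cell 10 held 86.0% of its reads. Without the cells that carried 5 or more basal genes its log2 ratio turned from 3.14 to -1.23. Ltf went the other way, with 4915 reads in pubertal luminal cells (109 CPM, detected in 12.5% of them) and 1 read in the adult ones. The ratio over pooled reads was 1098, with a counting interval of 197 to 43366 that does not cover differences between cells. Ltf was detected in no thinned adult cell, which allows a share of up to 13.6%. The share of cells with Ltf could thus be the same at both stages.

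The high casein cells belonged to the progenitor-like side of the layer. After thinning, 14 genes known from luminal progenitors and 22 known from mature luminal cells were counted in each cell. More progenitor than mature genes were detected in 10 of 80 pubertal (12.5%, interval 6.16 to 21.8%) and 6 of 22 adult cells (27.3%, 10.7 to 50.2%), and the shares overlap in their intervals. No cell had equal numbers, and 3 pubertal and 1 adult cell lay within 2 genes of the dividing line. All 4 adult cells at 1000 CPM of Csn2 and 5 of the 6 at 1000 CPM of Csn1s1 were among the 6 progenitor-leaning ones, as were the pubertal cells, 3 of 3 for Csn1s1 and 1 of 1 for Csn2. Within progenitor-leaning cells alone, Csn1s1 stood at 2911 CPM at puberty and 25095 CPM in the adult, and 3 of 10 against 5 of 6 cells reached 1000 CPM (30.0%, interval 6.67 to 65.2%, and 83.3%, 35.9 to 99.6%). These cells are few, and the intervals overlap.

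Within mature-leaning cells alone (70 pubertal and 16 adult), the milk list lay on the other side of 0, with a median log2 ratio of -1.16. Csn1s1, Csn2 and Csn1s2a stayed past the fold there, at 0.435, 0 and 0.179 CPM at puberty and 77.3, 29.0 and 86.4 CPM in the adult. Adult cell 26 held 52.0%, 41.8% and 57.7% of these adult reads, and without it the adult levels were 38.6, 17.5 and 38.0 CPM. This cell had the most Krt14 of all adult members (38.4 RPKM) and 30.0% of its reads on mitochondrial genes. Of the 109 called genes chosen by rule, 96 kept their call within mature-leaning cells and 53 within the few progenitor-leaning cells.

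**Figure D3:**
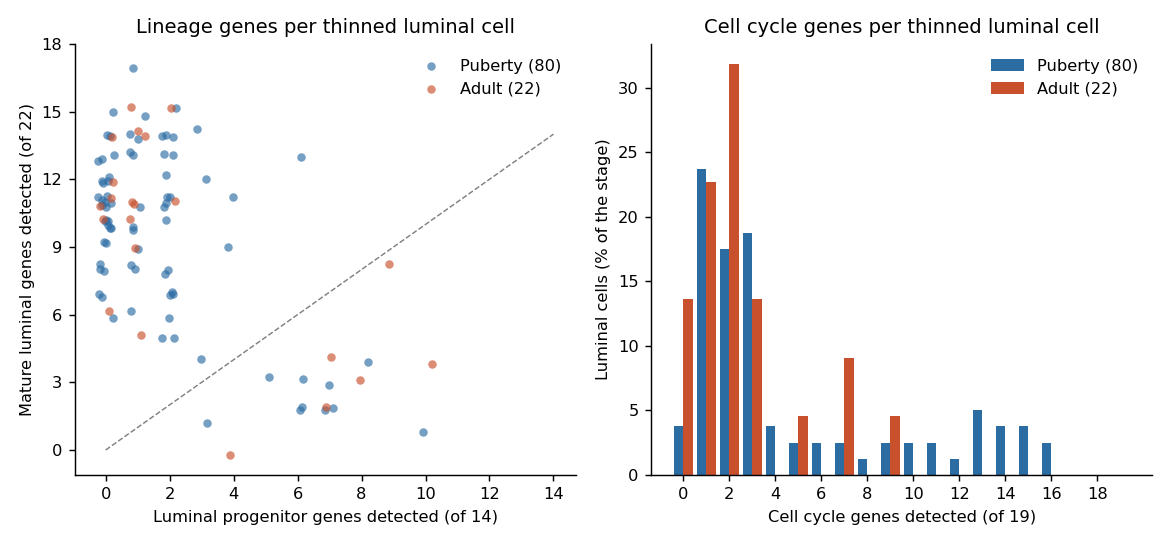
Left, number of mature luminal genes (of 22) against luminal progenitor genes (of 14) detected in each luminal cell thinned to 100000 reads, jittered, with the line of equal numbers dashed; right, share of luminal cells by the number of cell cycle genes (of 19) detected. Below the line lie 10 of 80 pubertal (blue) and 6 of 22 adult (orange) cells, and 8 or more cell cycle genes occur in 20 pubertal cells and 1 adult cell.

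Progenitor genes as a list had a median ratio near 0, above that of all genes. All 14 reached 10 CPM, 1 was higher, 1 lower and 12 past neither limit. The shares, 7.14% each way, compare with 6.57% higher and 32.0% lower of all genes. The median log2 ratio was 0.04, against -0.32 over all genes. The higher gene was Ehf, an epithelial Ets factor, at 150.2 and 475 CPM. Within mature-leaning cells Ehf was lower in the adult (136 and 2.79 CPM) and within progenitor-leaning cells higher (242 and 1652 CPM). Ehf belongs to the list by which the cells were divided, so these values describe the division as well as the stage. The lower gene was Aldh1a3, a retinaldehyde dehydrogenase, at 64.2 and 10.5 CPM. Kit, a receptor tyrosine kinase of progenitors (20.1 and 40.9 CPM), Elf5, the alveolar Ets factor (14.2 and 37.8 CPM), and Cd55, a complement regulator (264 and 254 CPM), were past neither limit, and in each of these values a single cell held at least 50.9% of the stage's reads.

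Mature luminal genes leaned to the adult. Of 22, 19 reached 10 CPM, 5 were higher (Prlr, Stc2, Cxcl15, Tnfsf11 and Arg1), 1 was lower (Fgb) and 13 past neither limit, with a median log2 ratio of 0.81 against -0.32 over all genes. The shares, 26.3% higher and 5.26% lower, compare with 6.57% and 32.0% of all genes. Without the members with 5 or more basal genes 3 were higher and 2 lower. Prlr (Entrez 19116, chromosome 15, 10177238 to 10349190), the prolactin receptor, was the most abundant of them, at 3694 CPM in pubertal and 8355 CPM in adult cells (log2 ratio 1.18, and 1.21 without the top cells). It was detected in 96.2% and 95.5% of thinned cells, so the difference lay in its level: cells ran from 0 through a median of 2339 to 20096 CPM at puberty and from 0 through 6836 to 24257 CPM in the adult. Those ranges overlap nearly throughout. Without the members that carried 5 or more basal genes its log2 ratio was 0.996, just short of the limit, and among the 55 pubertal and 6 adult members with no Krt14 read it was 0.10. Within mature-leaning cells it stayed past the limit, at 4183 and 11085 CPM.

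Stc2, the hormone stanniocalcin, was found in similar shares of cells at both stages, with 119 and 458 CPM and detection in 57.5% and 63.6% of cells. Cxcl15, a chemokine, stood at 135 and 728 CPM, and Arg1, arginase, at 97.4 and 246 CPM. Neither was called without the members with 5 or more basal genes, where their log2 ratios were 1.57 and 1.16. Tnfsf11 encodes RANKL, through which progesterone acts on neighbouring cells: it had 3 reads in pubertal members and 322 in adult ones, from 3 of 22 cells. Fgb, a fibrinogen chain, was detected in 65.0% of pubertal but 13.6% of adult cells, and adult cell 7 held 80.2% of the 215 CPM that remained of 1033 CPM.

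The steroid receptors themselves were not called over all members. Esr1, oestrogen receptor alpha, stood at 63.9 CPM at puberty and 356 CPM in the adult, but 78.8% of the latter lay in adult cell 28, and without the top cells the levels were 57.1 and 81.7 CPM. Its share of thinned cells was 38.8% at puberty and 27.3% in the adult. Pgr, the progesterone receptor, stood at 116 and 98.7 CPM with detection in 30.0% and 50.0% of cells. Without the members with 5 or more basal genes Esr1 was called higher (log2 ratio 3.04) and Pgr lower (-1.28) in the adult. Foxa1, the pioneer factor of the oestrogen receptor, stood at 174 and 238 CPM. Areg, amphiregulin, the EGF family ligand that carries the oestrogen signal in the pubertal duct, was level at 918 and 905 CPM, although its median over cells was 662 CPM at puberty and 20.5 CPM in the adult. Ly6d, a surface protein of luminal cells, stood at 1297 and 2252 CPM.

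Prolactin signalling runs from its receptor through the kinase Jak2 to Stat5. Of 14 listed genes 12 reached 10 CPM, with 3 higher (Prlr, Jak2 and Nr3c1) and 3 lower (Stat5b, Nfib and Ghr), 25.0% each way against 6.57% and 32.0% of all genes. Under TMM or median-of-ratios scaling, which correct for the make-up of the pools, Ghr alone of these 3 stayed lower. Jak2 stood at 52.3 CPM at puberty and 294 CPM in the adult, where cell 28 held 60.0%. It was not called without the members with 5 or more basal genes, and its log2 ratio of 2.38 turned to -3.25 within progenitor-leaning cells and to -1.46 among members with no Krt14 read. Nr3c1, the glucocorticoid receptor that acts with Stat5 on milk genes, stood at 32.9 and 343 CPM. Stat5a, the main mammary Stat5, was at 33.5 and 102 CPM and past the limit over all cells but not without the top cells (log2 ratio 0.75), and Stat5b was at 10.1 and 0.797 CPM. Cish, a feedback inhibitor induced by Stat5, was at 131 and 237 CPM, and at 111 and 104 CPM without the top cells. Nfib, a transcription factor of milk genes, was detected in 96.2% and 77.3% of cells, at 1538 and 726 CPM.

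ErbB and FGF signalling genes leaned to puberty. These receptor kinases and their ligands drive the outgrowth of the duct. Of 23 genes 21 reached 10 CPM, 11 were lower in the adult, 1 was higher (Spry4, a feedback inhibitor) and 9 past neither limit, with a median log2 ratio of -1.35. The share called lower, 52.4% of the 21, compares with 32.0% of all genes considered.

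Among receptors, Egfr had 973 reads in pubertal luminal cells, from 12.5% of them, and none in the adult. Over pooled reads it was at least 72.4-fold lower against a floor of 3 reads in the adult pool. This bound does not cover differences between cells. The absence of Egfr from all adult cells allows a share of up to 13.6%. The share of cells with Egfr could thus be the same at both stages. Erbb2 stood at 122 and 9.96 CPM, and Erbb3, its partner, at 25.8 and 7.87 CPM. These 2 did not hold within the 10 and 6 progenitor-leaning cells, where the log2 ratios were 2.07 and 2.70, and Erbb3 was not called without the members with 5 or more basal genes (-0.85). Fgfr2, which receives FGF signals from the stroma, stood at 702 and 265 CPM. Among ligands, Nrg1, neuregulin, stood at 275 and 3.89 CPM and Btc, betacellulin, at 70.9 and 5.18 CPM, whereas Areg was level.

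Downstream of the receptors, Nras (Entrez 18176, chromosome 3, 103058285 to 103067914), a Ras GTPase, stood at 1784 and 194 CPM (log2 ratio -3.17, and -3.54 without the top cells). It was detected in 97.5% and 90.9% of thinned cells, so nearly every cell had it at both stages, but at a median of 1232 CPM at puberty and 77.8 CPM in the adult. Gsk3b, a kinase of the Wnt and insulin pathways, stood at 1112 and 192 CPM with detection in 95.0% and 100% of cells, and the highest adult cell (864 CPM) lay below the pubertal median (930 CPM). The stages overlapped for both genes. Both were lower in the adult within mature-leaning and within progenitor-leaning cells taken alone. Nf1, a brake on Ras, stood at 321 and 109 CPM, and the adaptor genes Grb14 at 139 and 1.39 CPM and Grb10 at 66.5 and 0.399 CPM.

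Cell cycle genes were lower in the pooled reads of adult luminal cells. Of 19 genes 17 reached 10 CPM, none was higher and 10 were lower (Mki67, Top2a, Cdk1, Aurkb, Birc5, Plk1, Mcm5, Tyms, Rrm2 and Tk1), with a median log2 ratio of -1.31. The share called lower, 58.8% of the 17, compares with 32.0% of all genes. Top2a, the topoisomerase of dividing cells, stood at 427 CPM in pubertal and 15.2 CPM in adult cells, 92.2% of the latter from cell 30. Rrm2, a subunit of ribonucleotide reductase, had 4157 pubertal reads and none in the adult, at least 309-fold lower against the same floor. Cdk1, the kinase that starts mitosis, had 7185 pubertal reads and 1 in the adult, a ratio of 1605 with a counting interval of 288 to 63391.

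The cycle genes were concentrated in some of the pubertal cells. At 8 or more of the 19 genes stood 20 of 80 pubertal cells (25.0%, interval 16.0 to 35.9%) and 1 of 22 adult cells (4.55%, 0.115 to 22.8%), and these intervals overlap. The adult cell was progenitor-leaning, and the pubertal ones were 17 mature-leaning and 3 progenitor-leaning cells. How far the calls and ratios above follow from the number of such cells in each pool was not tested. The highest pubertal cell had 16 genes and the highest adult cell 9. In 51 of 80 and 18 of 22 cells 3 or fewer were detected. Ccnd1, cyclin D1, which growth signals induce before division, was at 480 and 444 CPM and past neither limit.

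By the rule for the strongest single genes (at least 100 CPM in the higher stage, detection in at least 50% of its thinned cells, and no cell with over 50% of the reads), the 10 genes that were highest in the adult relative to puberty were Csn2, Fxyd2, Csn1s1, Tph1, Ctnnbl1, Nbea, Zfp36l2, Rflnb, Nupr1 and Pik3r1. Csn2 and Csn1s1 met the detection condition through low reads, the source of which, as said above, was not tested. They were detected in 63.6% and 68.2% of adult cells, but 4 and 6 cells held 99.2% and 98.8% of the reads. Tph1, the first enzyme of serotonin synthesis, stood at 94.5 CPM at puberty and 1507 CPM in adults. Cells ran from 0 through a median of 0 to 2316 CPM at puberty and from 0 through 9.09 to 7717 CPM in the adult, with detection in 10.0% and 54.5% of thinned cells. The progenitor-leaning cells held no Tph1 read at either stage. Nupr1, a small stress-induced nuclear protein, stood at 519.6 and 3379 CPM, with detection in 48.8% and 90.9% of cells and medians of 2.38 and 1135 CPM. Fxyd2, a regulator of the sodium pump, stood at 25.1 and 653 CPM, and Pik3r1, the regulatory subunit of phosphoinositide 3-kinase, at 102 and 668 CPM.

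The 10 genes lowest in the adult by the same rule were Fst, Mbnl3, Gja1, Emc1, Ubr1, Smc2, Itih2, Sec23ip, Moxd1 and Crispld2. Fst (Entrez 14313, chromosome 13, 114452262 to 114458989), follistatin, which binds activin, was detected in 55 of 80 thinned pubertal cells (68.8%, interval 57.4 to 78.7%) and in 0 of 22 adult ones, which allows a share of up to 13.6%. It ran from 0 through a median of 52.5 to 3981 CPM at puberty and had 1 read in all adult members, a ratio of 3862 with a counting interval of 693 to 152558. Inhba, the activin subunit that follistatin binds, was also lower, at 48.6 and 0.0996 CPM. Gja1 (Entrez 14609, chromosome 10, 56377300 to 56390419), the gap junction protein connexin 43, stood at 399.5 and 2.19 CPM, with detection in 78.8% and 18.2% of cells, and no adult cell exceeded 26.3 CPM against a pubertal median of 141 CPM. Mbnl3, an RNA splicing regulator, stood at 664 and 6.87 CPM. Without the 7 members that went against the label, Fst and Gja1 remained past the limit, at log2 ratios of -6.07 and -5.71.

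**Figure D4:**
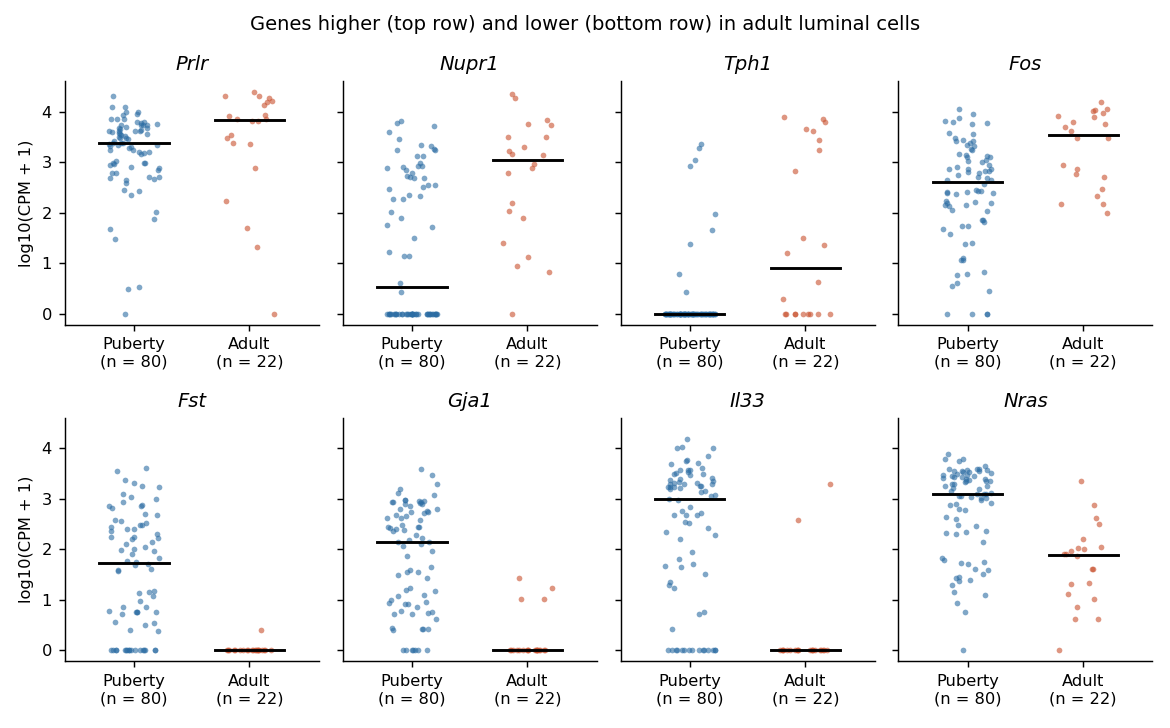
Level of 8 genes in each luminal cell (points) as log10(CPM + 1) at puberty (blue, 80 cells) and in the adult (orange, 22 cells), with black bars at the median. In the top row the adult medians of Prlr, Nupr1, Tph1 and Fos lie above the pubertal ones; in the bottom row Fst, Gja1 and Il33 have an adult median of 0, and Nras is present in most cells of both stages at different levels.

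Luminal keratin and junction genes were for the most part not called, but those that were called were all junction genes, and lower in the adult. The list includes luminal keratins, and the rule itself kept Krt8 or Krt18 above 40 RPKM in members of both stages. That these keratins were not called thus follows in part from the rule. Of 16 luminal keratin and junction genes, 12 were past neither limit, among them Krt19 (1334 and 1664 CPM), Epcam (1151 and 1945 CPM) and Krt7 (342 and 362 CPM), and 4 were lower, 25.0% against 32.0% of all genes. The 4 were Ocln, the tight junction protein occludin (135 and 2.19 CPM), Cgn, cingulin (104 and 9.96 CPM), Cldn4, a claudin (334 and 46.8 CPM), and Cdh1, E-cadherin (99.3 and 25.0 CPM). Cldn4 was detected in 80.0% and 45.5% of cells.

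Immune defence genes moved in both directions. Of 16 mucosal defence genes 10 reached 10 CPM, with 4 higher (Hp, Cxcl2, Lcn2 and Lbp) and 1 lower, 40.0% and 10.0% against 6.57% and 32.0% of all genes. Cxcl2 was not called without the 7 members that went against the label, nor without those with 5 or more basal genes. Hp, haptoglobin, stood at 42.5 CPM at puberty, 86.9% of it from cell 85, and 1135 CPM in the adult, and was higher also within mature-leaning cells (5.99 and 858 CPM). Lcn2, the iron-sequestering lipocalin, stood at 459 and 1899 CPM, but within mature-leaning cells it was lower in the adult, at 40.3 and 5.72 CPM. Il33, an alarm cytokine of epithelial nuclei, was the lower gene: it was detected in 77.5% of pubertal and 9.09% of adult cells, at 1924 and 208 CPM, with 95.9% of the adult reads in cell 41, so that without the top cells the levels were 1768 and 9.43 CPM. None of the 11 antigen presentation genes at 10 CPM passed the fold in both readings. B2m, the invariant class I chain, stood at 1753 and 2471 CPM, and the largest log2 ratios of that list, 5.88 for H2-Aa and 4.51 for Cd74, came wholly from adult cell 51, which carried the immune genes. Among the interferon response genes Oasl2 and Ifit1 were lower, and none was higher.

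Immediate early genes, which respond within minutes to stimuli and to tissue handling, were higher for Fos (1205 and 3891 CPM), Zfp36 (141 and 444 CPM) and Egr1 (499 and 1097 CPM) and lower for Klf6 (2376 and 1150 CPM) and Nr4a1 (41.1 and 16.5 CPM), with 12 of the 17 at 10 CPM past neither limit. The shares, 17.6% higher and 11.8% lower, compare with 6.57% and 32.0% of all genes. The log2 ratio of Egr1 turned from 1.13 to -0.36 within progenitor-leaning cells and to -2.48 among members with no Krt14 read. Fos was detected in 88.8% and 100% of cells, and all adult cells had at least 95.0 CPM. Klf6 and Nr4a1 were no longer past the limit under TMM or median-of-ratios scaling. Of 10 heat shock genes 1 was higher (Hspa1a) and 2 lower (Dnajb1 and Hspb1), 10.0% and 20.0% against the same shares of all genes. Hspa1a was not called without the members with 5 or more basal genes (log2 ratio 0.59 from 2.72), and Dnajb1 turned to 1.39 within progenitor-leaning cells. The labels give no capture batch, so that handling cannot be told apart from stage in these genes.

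Metabolic lists contained more lower than higher genes, as all genes did. Of the 14 glycolysis genes at 10 CPM, 6 were lower (Pfkl, Slc2a1, Gpi1, Hk1, Pkm and Aldoa) and none higher, and of 16 respiratory chain genes 5 were lower and none higher; at 42.9% and 31.2% these shares compare with 32.0% over all genes. Aldoa, a glycolytic aldolase, stood at 910.3 and 377 CPM and Atp5b, a subunit of the ATP synthase, at 688 and 300.2 CPM. Of 15 lipid synthesis genes 6 were lower, among them Sqle and Hmgcs1, enzymes of cholesterol synthesis, Insig1, a regulator of that pathway, and Elovl6, which lengthens fatty acids, and 2 were higher (Lss and Scd1), 40.0% and 13.3%. Lss was not called without the members with 5 or more basal genes. Of 14 secretory pathway genes 2 were higher, Xbp1, the factor that expands the endoplasmic reticulum (62.6 and 336 CPM), and Ssr4 (249 and 697 CPM), and 2 lower (Creld2 and Ddit3), 14.3% each way. Without the members with 5 or more basal genes none was higher, as Xbp1 and Ssr4 lost their call, and neither was Ddit3 called. Xbp1 turned to a log2 ratio of -1.26 within progenitor-leaning cells.

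The 200 luminal and 200 basal genes that the study used to tell the lineages apart were described in the same way, and the luminal ones include 12 of the 17 milk genes. Of 162 luminal genes at 10 CPM, 35 were higher (21.6%) and 26 lower (16.0%) in adult luminal cells, with a median log2 ratio of 0.52. Together the 200 took 4.16% of pubertal and 7.82% of adult luminal reads. Of 75 basal genes at 10 CPM, 5 were higher (6.67%) and 32 lower (42.7%), a median of -1.35, with 0.625% and 0.182% of reads. Over all genes 6.57% were higher and 32.0% lower, so the share of basal genes called higher was close to that of all genes. The 17 listed basal genes ended in both directions, with 2 of the 12 at 10 CPM higher (16.7%) and 5 lower (41.7%). Krt14 (2.76 and 11.6 CPM) and Myh11, smooth muscle myosin (7.39 and 64.4 CPM), were higher, and Krt17, Tagln, Myl9, Col17a1 and Igfbp3 lower. Krt14 was held low in every member by the rule itself. Myh11 lost its direction (log2 ratio -0.07) without the members that carried 5 or more basal genes, and Krt14, Tagln, Myl9, Col17a1 and Igfbp3 were not called there. The members left out were picked by these same genes.

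The same contrast in Krt14-positive cells, 29 pubertal against 18 adult, gave values that are set beside those of the luminal cells without a test of the difference. Csn1s1, Csn2 and Csn1s2a stood at 2.16, 0 and 0 CPM at puberty and 841, 899 and 884 CPM in the adult there. Of the 18 adult cells, 2, 1 and 2 reached 1000 CPM of these genes. Nras was at 1147 and 260.5 CPM, and Fst at 606 and 174 CPM. Fos stood at 1629 and 4628 CPM. Of the other genes described above, Prlr stood at 1967 and 1386 CPM, Cxcl15 at 70.02 and 3.14 CPM, Tph1 at 5.13 and 59.5 CPM, and Krt17 at 218 and 781 CPM.

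**Figure D5:**
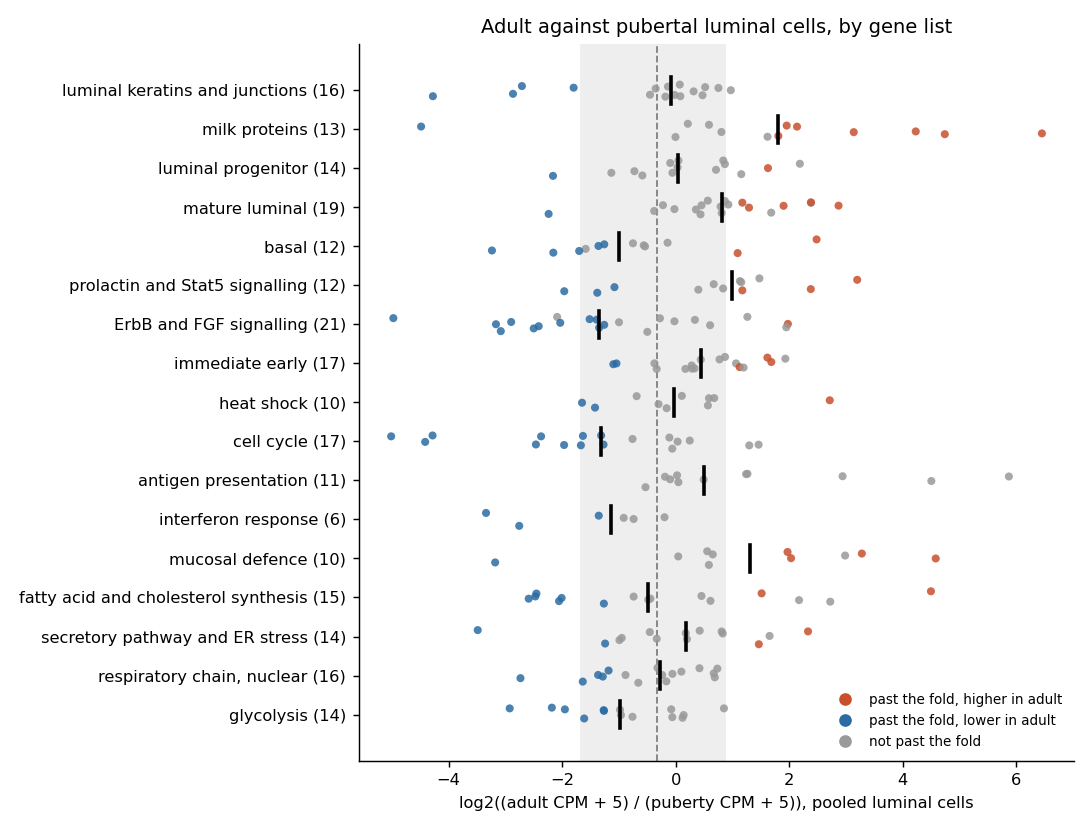
Log2 ratio of adult over pubertal luminal cells for each gene at 10 CPM or more (points) in 17 gene lists, with the number of genes in parentheses, black bars at the list medians, a dashed line at the median of all 8929 genes (-0.32) and grey shading over their middle 2 quartiles; orange points are called higher, blue ones lower and grey ones neither. Milk protein genes (median 1.81) lie to the right of the line, and ErbB and FGF signalling (-1.35) and cell cycle genes (-1.31) to its left.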

How the data were processed

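Single epithelial cells were captured on Fluidigm C1 chips and inspected under a microscope by the authors before cDNA was made, and no doublet caller was run here. The authors deposited whole-number counts of read pairs per Entrez gene for each cell, made by mapping to mm10 with Subread 1.4.6 and counting with featureCounts (versions per the submitters' processing notes), together with gene lengths. How read pairs shared by similar genes were treated is not given in the sources used here, so genes with near copies, such as Krt8 and Krt18, are uncertain. Of 27179 genes, 25275 had a RefSeq match on GRCm38.p6; 15 mitochondrial and 124 ribosomal protein genes were removed, leaving 25136. No 2 cells had identical counts. The lists of the study matched in full, 7 genes by an older name.

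RPKM, CPM, log2 ratios, exact Poisson and Clopper-Pearson intervals were computed from the deposited counts with Python 3.11.15, pandas 2.3.3 and scipy 1.17.1; floors and intervals use 3 counts and 95%. Cells were thinned once at random to 100000 reads. The calling step was run on simulated cells with known changes, drawn from 1 pooled pubertal profile. These held no separate kinds of cell and no differences between mice or captures, so the run does not measure how calls hold under them. With 1 sample per stage no count model was fitted; edgeR 4.0.16 gave TMM factors only. Depth per cell is in the report. The members, gene lists and alternatives were chosen with earlier results of these data known. Named genes were the rule's keratins with Krt19 and Epcam, up to 6 members of each list past the fold by size of ratio (or its 2 most abundant members where fewer than 2 were), the 10 strongest in each direction, and 18 genes of interest in the study. Genes named outside this rule, such as Csn3, Lalba, Wfdc18, Wap, Stat5a, Cish, Fgfr2, Nf1, Ccnd1, Mfge8, Plin2 and Krt7, are list members chosen after their values were seen. Single values of some list members are not reported here.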

Additional observations from a re-analysis of the deposited data

Results flagged for a closer look

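The cells below the coverage filter entered no comparison. Of these, 23 adult cells had casein levels well above those of the 17 pubertal ones, measured in the same way. The keratin rule was not applied to these cells, so they are not luminal cells alone. They come from the same 2 stages, so this is no independent repeat of the contrast. The pubertal cells are no measure of stray casein reads in adult cells. Csn1s1 stood at 4068 CPM in the adult cells (Poisson interval 3924 to 4217) and 6.70 CPM in the pubertal ones (2.17 to 15.6). Csn2 stood at 2984 and 1.34 CPM, and Csn1s2a at 1214 CPM against no read in 746667, a limit of 4.02 CPM. The adult cell with most reads of the gene held 68.6% of the Csn1s1, 86.1% of the Csn2 and 45.1% of the Csn1s2a reads, and without that cell the adult levels were 2149, 699.6 and 703.5 CPM.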

How the results depend on the processing

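No paired analysis was possible because the numbers in the labels only name cells, and no label ties a cell to a mouse. With 1 sample per stage, no alternative measures the spread between animals, and depth limits shares of cells with weak genes most. Of 2006 named-gene log2 ratios under 17 alternatives, 1798 kept their direction and side of the limit, 170 fell short of the limit, 8 passed it and 30 changed direction, and the cause was not tested. The choices that split the cells by their make-up, or left out members that carried other cell types' genes or many mitochondrial reads, and the count over all cells only, were added after seeing the data.

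The count of genes called higher was 330 with a constant of 20 CPM, 284 without any Krt14 read and 2005 over all cells only. The count called lower was 1425 with a constant of 20 CPM, 1313 with a filter of 50 CPM, 4341 by the ratio without the top cells alone (which removes 1 of 22 cells against 1 of 80) and 1796 in progenitor-leaning cells. Under TMM and median-of-ratios scaling all ratios rose by 0.13 and 0.26, and the higher and lower counts were 669 and 2641, and 760 and 2483. Demanding no Krt14 read left 46.2% of kept pubertal and 14.0% of kept adult cells as luminal.

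List medians moved most with the choice of cells. Milk proteins stood at -1.16 in mature-leaning cells. Luminal progenitor genes stood at -1.81 there and at -0.99 without any Krt14 read. Mature luminal genes stood at 0.10 without any Krt14 read and 2.86 in progenitor-leaning cells. The leaning of a cell was counted on these same lists, so -1.81 and 2.86 follow in part from the choice of cells. Basal genes stood at -2.04 with a keratin threshold of 20 RPKM, -2.06 without members with 5 or more basal genes and -4.41 in progenitor-leaning cells. The value of -2.06 likewise comes from leaving out cells by their number of these same genes.

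Log2 ratios of single genes that changed direction in mature-leaning cells were those of Btn1a1 (-1.83), Ehf (-4.18), Lcn2 (-2.08) and Lbp (-1.56). In progenitor-leaning cells they were those of Tagln (0.38), Jak2 (-3.25), Erbb2 (2.07), Erbb3 (2.70), Fabp4 (-0.074), Egr1 (-0.36), Hspa1a (-0.080), Dnajb1 (1.39), Xbp1 (-1.26), Uqcrc2 (3.62), Uqcrc1 (1.00), Gpi1 (0.032), Hk1 (0.67) and Itih2 (0.31). Without any Krt14 read they were those of Myh11 (-0.44), Jak2 (-1.46), Egr1 (-2.48), Cxcl2 (-0.074), Fabp4 (-4.72), Ssr4 (-0.43) and Ddit3 (0.022). Without members with 5 or more basal genes they were those of Spp1 (-1.23) and Myh11 (-0.074), and with a keratin threshold of 20 RPKM that of Hmgcs1 (0.54). Fabp4 changed direction also with a keratin threshold of 80 RPKM (-5.05) and without the members that went against the label (-4.58).

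With detection at 5 reads in a thinned cell, shares were 36.4% of adult cells for Csn2, 40.9% for Csn3, 0% for Gja1 and 4.55% for Top2a, and 23.8% of pubertal cells for Esr1, 50.0% for Fst and 56.2% for Gja1, and the median number of basal genes in adult cells was 0. Without thinning, shares of pubertal cells were 55.0% for Esr1, 78.8% for Fst, 91.2% for Gja1 and 53.8% for Top2a.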
